A study of Etroplus suratensis with 2 samples.

Results

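Very long contigs, those of at least 10000 bases, made up 287 of the 96646 contigs in a transcript assembly of *Etroplus suratensis*, the green chromide, a cichlid fish of brackish water. The rule that picks them uses length alone. The study sequenced organs tied to growth, reproduction and immunity in 2 libraries, 1 per sex. The male pool combined total RNA of testis with that of muscle, spleen, kidney, liver and brain, and the female pool combined RNA of ovary with that of the same 5 other organs. The labels give no strain, age or treatment, and they state neither the number of fish per pool nor the share of each organ.

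Messenger RNAs of this length are uncommon in vertebrates and often encode giant proteins. Known examples are titin and nebulin, which span the sarcomere of muscle, the dynein heavy chains, which move cilia and sperm tails, spectrins and other proteins of the membrane skeleton, and apolipoprotein B, which liver and intestine load with lipid. Brain transcripts can also be long through extended untranslated ends. The deposited table pairs no gene name or sequence with a contig, so none of these genes was matched to a member. The organ content of the pools could not be checked against marker genes for the same reason.

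The members were few but carried a sizable part of the assembly. Their length ran from 10007 to 31248 bases with a median of 11803. Together they held 3700322 bases, or 3.93% of all assembled bases, in 0.297% of the contigs. The longest contig, of 31248 bases with 45.5% GC, had 2374 male and 4191 female reads. The next, of 28525 bases with 45.4% GC, had 2909 male and 2693 female reads, and the third longest, of 26449 bases with 45.3% GC, had 6517 and 5309. All 3 lay under 2-fold apart between the pools by CPM, that is, by each contig's reads scaled to its library's summed counts. Just inside the length threshold lay contigs of 10007, 10012 and 10017 bases, with male FPKM of 8.66, 2.96 and 4.94 and female FPKM of 6.38, 3.25 and 2.64. Just outside it lay contigs of 9979, 9973 and 9963 bases, with 7.25, 5.35 and 15.9 male FPKM and 3.06, 3.41 and 4.47 female FPKM. FPKM is the authors' value of reads scaled to contig length and to the size of the library.

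The GC content of the members was higher and less variable than that of contigs of 2000 to 4000 bases and of all contigs. It ran from 38.9% to 60.3%, with a median of 46.7% and quartiles of 44.6% and 49.2%. In the 8519 contigs of 2000 to 4000 bases, the comparison class used throughout, the median was 45.2% with quartiles of 42.3% and 48.4%. Over all contigs it was 43.0%. The interquartile range was 4.70 percentage points in the members, 6.15 in the comparison class and 8.92 over all contigs. Contigs of 8000 to 10000 bases lay close to the members, with a median of 46.3% and an interquartile range of 5.17 points. In the members of 12000 to 15000 bases that range was 6.01 points. The median GC content was 46.8% at 10000 to 12000 bases, 46.1% at 12000 to 15000 and 47.1% in the 54 contigs of at least 15000 bases. Within the members it thus had no steady course with length. Spearman's rho between length and GC across the 286 members with at least 10 reads was -0.020. Summed over the members, A made up 26.6% of the bases, T 26.5%, C 23.4% and G 23.5%.

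**Figure D1:**
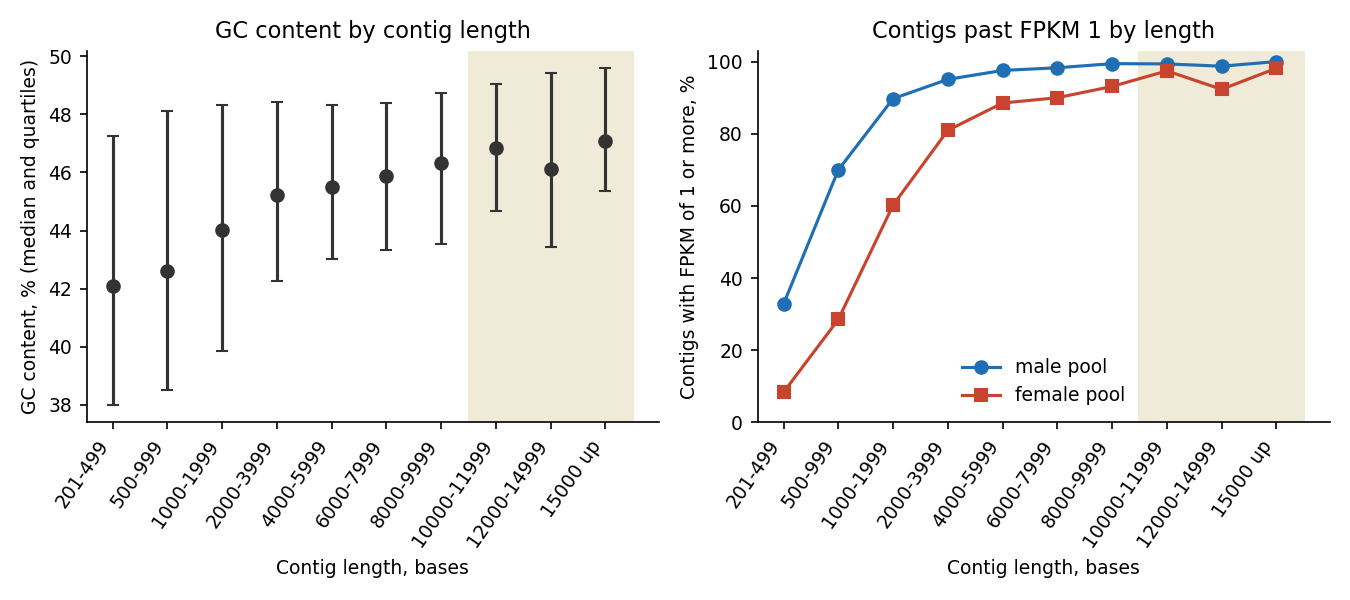
Left, GC content in percent by class of contig length, with points for medians and bars for quartiles; right, the percent of contigs with a deposited FPKM of 1 or more in the male pool (circles) and the female pool (squares), with the classes of at least 10000 bases shaded. The median GC content is 42.1% under 500 bases and 47.1% at 15000 bases or more, and the gap between the pools past FPKM 1 is narrow in the shaded classes.

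Nearly every member was detected above an FPKM of 1 in both pools. In the male pool 285 of the 287 members reached it, where 52.7% of all contigs did. In the female pool 276 did, against 26.9% of all contigs, and these 276 were all among the 285. The corresponding shares were 95.1% (male) and 80.9% (female) of the comparison class, against 99.3% and 96.2% of the members. They were 99.4% and 93.1% in contigs of 8000 to 10000 bases. At an FPKM of at least 5 the pools stood further apart, with 192 members reaching it in males and 146 in females. An FPKM of 20 was reached by 26 and 22. Of all 96646 contigs, 15243 (male) and 11902 (female) reached an FPKM of 5, and 3254 and 3917 an FPKM of 20. Of the 8519 contigs of the comparison class, 4205 and 3895 reached 5, and 865 and 1468 reached 20. At 20 the female pool thus had the larger number there, unlike in the members. These numbers were not computed under other scalings of the libraries, which move the levels of one pool against those of its counterpart. Which pool had the larger number at a threshold is therefore a description of the deposited FPKM. Every member had at least 1 read in each pool, as did every contig of 8000 to 10000 bases. Of the 8519 contigs of the comparison class, 18 had no male read and 30 had no female read. Those are small shares, and the absence of such cases among 287 members is near them. Of all 96646 contigs, 3395 had no male read and 18294 had no female read.

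The members occupied a narrow band of abundance. Male FPKM ran from 0.0261 to 135 with a median of 6.35 and quartiles of 4.48 and 9.72. Female FPKM ran from 0.00264 to 1175 with a median of 5.30 and quartiles of 2.86 and 9.54. The mean of both FPKM lay between 2 and 16 for 250 members, or 87.1%, against 63.4% of the comparison class. In contigs of 8000 to 10000 bases the share was close to that of the members, at 84.8%. Under 2 lay 4 members (1.39%, against 18.3%), and at 16 or more lay 33 members (11.5%, against 18.3%). Because of their length, this moderate FPKM rested on many reads, with a median of 1686 male and 1680 female reads per member against 288 and 296 in the comparison class.

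A single contig held a large part of the female reads of the group. The share of male counts in the members was 3.920% (95% Wilson interval 3.911 to 3.928) and that of female counts was 4.440% (4.432 to 4.448), close to their 3.93% of assembled bases. TRINITY_DN19138_c1_g1 alone took 1.32% of all female counts, with 324553 of the 1094490 female reads of the members. Without it the members held 3.915% of male and 3.124% of female counts, so the direction of the difference between the pools turned on this contig. These intervals cover counting error only. With 1 library per sex no spread between pools is known, and no differential test was possible.

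By total counts, a 4-fold difference in either direction was found in 41 members, and most of the rest lay under 2-fold apart. The log2 ratio of male to female CPM had a median of 0.45 over the 286 members with at least 10 reads, a ratio of 1.37, with quartiles of -0.40 and 1.36. It was positive in 182 members, or 63.6%, against 75.6% of all contigs with at least 10 reads and 59.8% of the comparison class. Under 2-fold apart were 154 members, or 53.8%, against 27.2% of all such contigs and 33.6% of the comparison class. In contigs of 8000 to 10000 bases this share was 50.0%. It was not computed under other scalings of the libraries, which move the members' median. In 29 members, or 10.1%, the male CPM was at least 4 times the female CPM, where the background over all contigs was 35.7%. In 12 members, or 4.20%, the female CPM was at least 4 times the male CPM, where the background was 8.10%. In pooled organs, fewer cells of a type and less RNA per cell cannot be told apart.

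The direction of these ratios depended on how the libraries were scaled. The distance between the members' median and that of other contigs cannot change, since each scaling shifts every contig alike. Scaling by the median of ratios moved every log2 ratio by -1.32, edgeR's TMM moved it by -1.20, and the median of ratios over contigs whose mean scaled count reached 1000 moved it by 0.70. The first used every contig with a read in both pools, however few. The median contig of the assembly had 8 male and 3 female reads. The members' median became -0.86, -0.75 and 1.15. Relative to the median of all contigs with at least 10 reads, which was 1.39 by total counts, it lay at -0.94 under each of these scalings. That background held 15680 contigs under 500 bases, with a median of 1.76, and 14184 of 500 to 1000 bases, with 1.72. At 4000 to 6000 and at 6000 to 8000 bases the median by total counts was 0.38, below that of the members. Relative to the comparison class the members' median lay at -0.09. The numbers at least 4-fold apart were 5 male-higher and 51 female-higher with the median of ratios, 6 and 44 with TMM, and 74 and 8 with the median over abundant contigs. Male-higher members were thus 70.7% of those 4-fold apart by total counts and 8.93%, 12.0% and 90.2% under the other scalings. As shares of the 286 members, the male-higher were 1.75%, 2.10% and 25.9%, against 12.9%, 14.3% and 51.8% of all contigs. The female-higher were 17.8%, 15.4% and 2.80%, against 17.3%, 16.1% and 5.41%. By the median of ratios and by TMM the female-higher share was thus near that of all contigs.

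**Figure D2:**
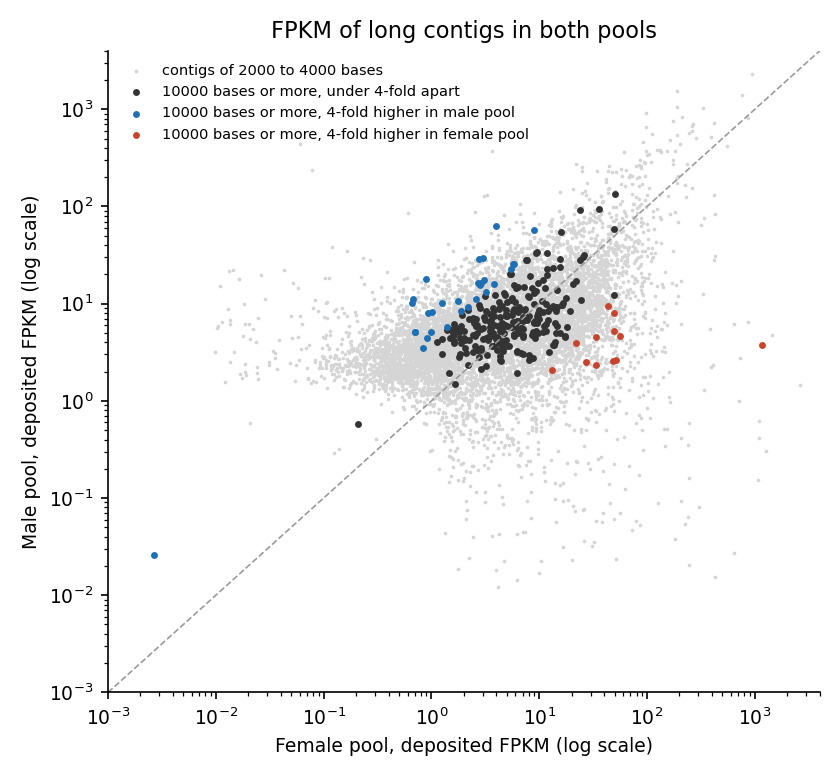
Deposited FPKM of each contig in the female pool (horizontal, log scale) and the male pool (vertical, log scale), for the 287 contigs of at least 10000 bases (dark and coloured points) over the contigs of 2000 to 4000 bases with reads in both pools (grey), with a dashed line at equal FPKM. Colour marks members at least 4-fold apart by CPM scaled by total counts, including the contig with 9 reads at the lower left. Most members lie in a compact cloud, and the point at 1175 female FPKM is TRINITY_DN19138_c1_g1.

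At equal FPKM of 2 to 16 the male/female ratio was less spread in the members than in contigs of 2000 to 4000 bases. Contigs were compared within classes of mean FPKM that each spanned a doubling. The interquartile range of the log2 ratio was 1.37 in the 56 members at FPKM 2 to 4, against 2.07 in the 1884 shorter contigs there. At FPKM 4 to 8 it was 1.43 in 121 members against 2.43 in 1910 contigs, and at 8 to 16 it was 1.97 in 73 members against 2.58 in 1608. The order turned at FPKM 16 to 32, where it was 3.57 in 25 members against 2.48 in 963 contigs. Averaged over all classes with the members' numbers as weights, it was 1.70 in the members and 2.46 in the comparison class, where classes of 1 or 2 members add little or no spread. Over the 4 classes of at least 20 members it was 1.75 against 2.40. An interquartile range does not move with the scaling. The ranks of the members were less alike between the pools than those of the comparison class. Spearman's rho between male and female FPKM, without matching, was 0.29 across the 287 members and 0.44 across the comparison class. The members covered a narrower band of FPKM.

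Counting error was smaller in the members than in the comparison class. It is given as a standard deviation, a measure unlike the interquartile ranges above. The median standard deviation of a log2 ratio expected from read numbers alone was 0.076 in the members and 0.174 in the comparison class at FPKM 2 to 4. It was 0.053 against 0.121 at FPKM 4 to 8, and 0.042 against 0.088 at 8 to 16. How far counting error or other properties of long contigs went with the narrower spread was not tested.

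The medians at equal FPKM differed in no single direction. The median log2 ratio was 0.92 in the members and 1.26 in the comparison class at FPKM 2 to 4, and 0.35 against 0.48 at 4 to 8. It was -0.06 against -0.43 at FPKM 8 to 16, and 0.24 against -0.96 at 16 to 32. In the comparison class the median was lower in each successive class of these 4, while in the members it was lower in the first 3 and higher again in the last. Spearman's rho between mean FPKM and the log2 ratio was -0.20 across the 286 members and -0.41 across the 8519 shorter contigs. Both are descriptions across contigs that share the same 2 libraries. The weighted difference between the medians was 0.11 towards the male pool in the members. It was -0.24 when classes were formed by the male FPKM and 0.18 when they were formed by the female FPKM, so its sign depended on the matching.

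**Figure D3:**
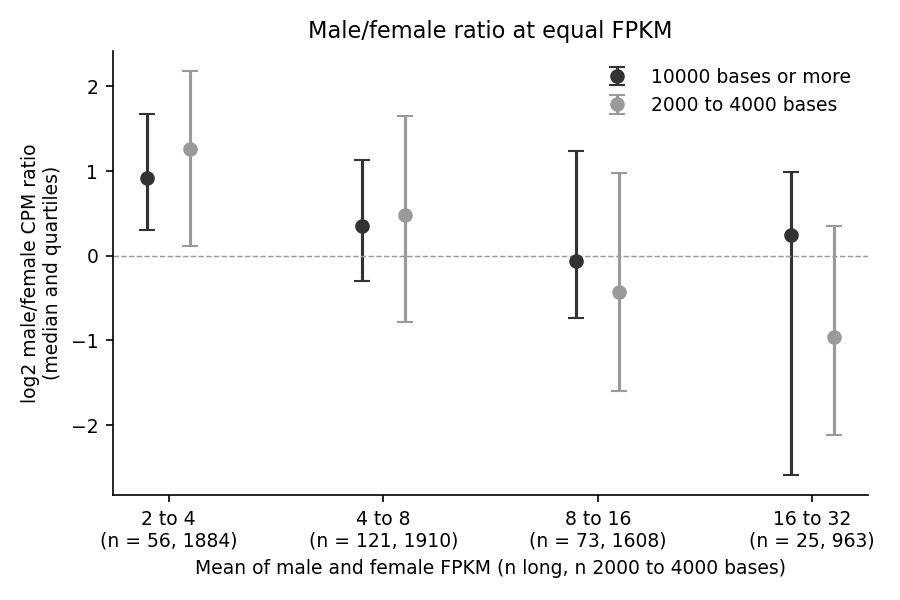
Log2 ratio of male to female CPM (vertical) in classes of mean FPKM that hold at least 20 long contigs (horizontal), for contigs of at least 10000 bases (dark) and of 2000 to 4000 bases (grey), with points for medians, bars for quartiles and the number of contigs under each class. The bars of the long contigs are shorter at FPKM 2 to 16 and longer at FPKM 16 to 32.

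Fewer members than shorter contigs were far apart at equal FPKM up to 16, but not above. At least 4-fold apart in either direction were 10.7% of members against 34.5% of the comparison class at FPKM 2 to 4, 8.26% against 27.0% at 4 to 8 and 17.8% against 29.4% at 8 to 16. At FPKM 16 to 32 the shares were 36.0% of 25 members against 34.5%, and at 32 to 64 they were 40.0% of 5 members against 37.6%. By direction, male-higher members were the more frequent at FPKM 8 to 16, with 15.1% against 11.3%, and at 32 to 64, with 40.0% against 6.76%. Female-higher members were the more frequent at 16 to 32, with 32.0% against 26.9%. With the FPKM mix of the members, 17.4% of the comparison class would be 4-fold male-higher, against 10.1% of the members. For the female pool the shares were 12.9% against 4.20%. By total counts, 53.8% of the members were under 2-fold apart, against 36.5%. The share of members 4-fold apart in either direction was 14.3% against 30.3% by total counts, 19.6% against 37.3% by the median of ratios, 17.5% against 35.7% by TMM and 28.7% against 37.9% by the median over abundant contigs. GC content also differed at equal FPKM, with a weighted mean of class medians of 46.8% in the members and 44.96% in the comparison class, a difference of 1.88 points. That difference was 2.44 points at FPKM 2 to 4, 2.48 at 4 to 8, 0.94 at 8 to 16 and 0.94 at 16 to 32.

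From 2000 bases up the spread was narrower towards greater length, though not at every step, and 10000 bases marked no break. Among contigs with a mean FPKM of 2 to 16, the interquartile range of the log2 ratio was 2.63 at 2000 to 4000 bases. It was 2.40 at 4000 to 6000, 2.02 at 6000 to 8000 and 1.91 at 8000 to 10000. At 1000 to 2000 bases it was 2.40, so 2000 to 4000 bases had the widest range from 1000 bases up. It was 1.65 in the 136 contigs of 10000 to 12000 bases, 1.94 in the 67 of 12000 to 15000 and 1.21 in the 47 of at least 15000. In the same band of FPKM, 30.3% of contigs of 2000 to 4000 bases were at least 4-fold apart in either direction. This share was 15.3% at 8000 to 10000 bases, 12.5% at 10000 to 12000, 13.4% at 12000 to 15000 and 6.38% at 15000 or more. No contig of at least 12000 bases in this band was 4-fold female-higher by total counts, but a high female level itself lifts a contig out of the band. Above it lay 4 such contigs, with mean FPKM of 25.4 to 30.3.

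**Figure D4:**
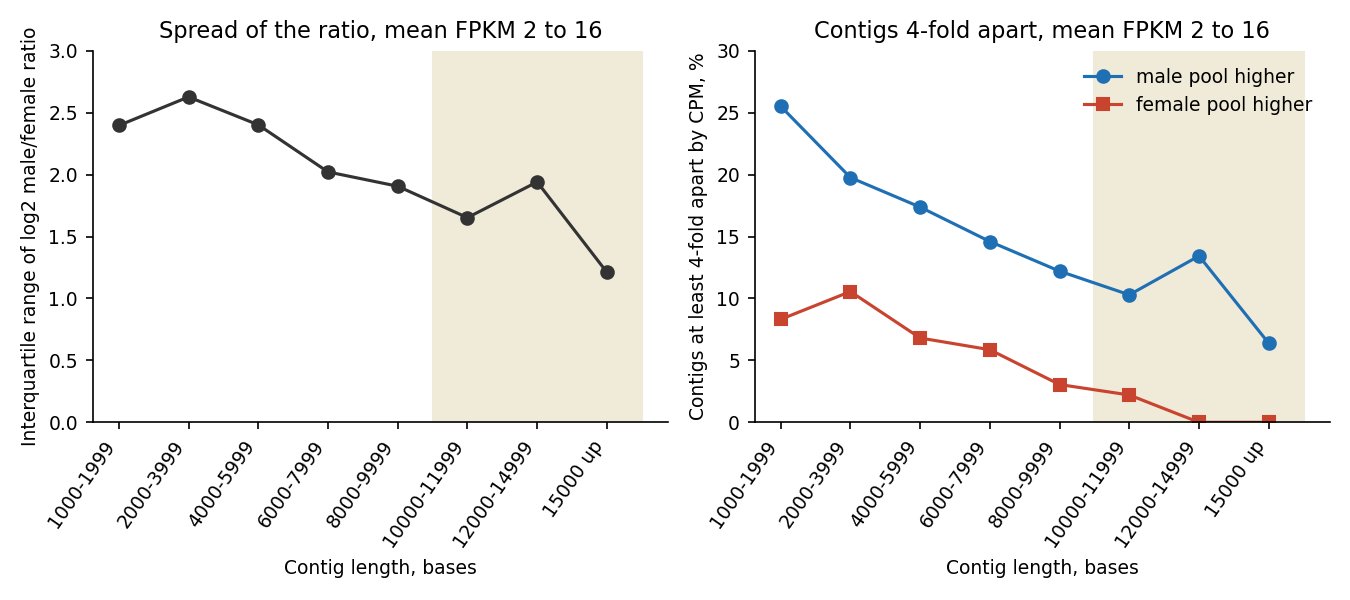
Contigs with a mean FPKM of 2 to 16, by class of length (horizontal). Left, the interquartile range of the log2 ratio of male to female CPM; right, the percent of contigs 4-fold male-higher (circles) or female-higher (squares) by total counts, with the classes of at least 10000 bases shaded. The spread and the male-higher share are lower at 15000 bases or more than in any other class drawn, and the female-higher share is 0 from 12000 bases, where the 4 female-higher contigs have a mean FPKM above the band.

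The 12 members that were 4-fold female-higher by total counts were abundant in the female pool, whose level enters the ratio that picked them. Their female FPKM ran from 13.1 to 1175 with a median of 45.7, and their male FPKM from 2.10 to 9.37 with a median of 3.89. They held 1.85% of female counts and 0.0639% of male counts, and 11 of the 12 had a mean FPKM of at least 8. In the comparison class the 4-fold female-higher share also rose with mean FPKM, from 5.52% at 2 to 4 to 26.9% at 16 to 32. The other scalings gave 51, 44 and 8 female-higher members, whose FPKM was not summarised. The 29 members that were 4-fold male-higher held 0.639% of male and 0.0938% of female counts. Their male FPKM ran from 3.50 to 62.4 with a median of 11.3, and their female FPKM from 0.662 to 8.96 with a median of 2.21. No member combined 1000 or more reads in a pool with fewer than 3 in its counterpart. Of all 96646 contigs, 76 did so with the female pool high and 16 with the male pool high. Those are small shares, and the absence of such cases in a group as small as the members is near them. Contigs of 8000 to 10000 bases had no such case either. At least 1000 reads in each pool and, by total counts, under 2-fold apart were 117 members. So were 1342 of all contigs, 427 of the 8519 in the comparison class and 88 of the 348 of 8000 to 10000 bases. A fixed number of reads is a lower FPKM in a longer contig.

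By total counts, members far apart between the pools had somewhat lower GC content than those near equality. Other scalings change which members fall in these groups, and their GC content was not computed there. The median was 45.5% in the 29 male-higher members, 45.3% in the 12 female-higher ones and 47.3% in the 154 under 2-fold apart. Of the 95 members of lowest GC content, 14 were 4-fold male-higher and 6 female-higher. Of the 95 members of middle GC content 7 and 4 were, and of the 96 of highest GC content 8 and 2 were. Between GC content and log2 ratio, Spearman's rho was -0.11 across the members and -0.16 across the comparison class. Between GC content and mean FPKM it was -0.18 across the members.

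The member furthest towards the female pool had more female reads than any other contig of the assembly. TRINITY_DN19138_c1_g1 spanned 10842 bases with 45.4% GC and drew 849 male and 324553 female reads. Its FPKM was 3.79 in males and 1175 in females. Its male CPM was 42.9 and its female CPM 13167, a log2 ratio of -8.26 with an exact Clopper-Pearson counting interval of -8.36 to -8.16. By FPKM, which allows for its length, it ranked 27 among all contigs in the female pool. TRINITY_DN17728_c2_g1 spanned 10269 bases with 44.7% GC and drew 554 male and 13536 female reads, for 2.61 and 51.7 FPKM. The log2 ratio of -4.29 had a counting interval of -4.42 to -4.17. The remaining 10 contigs of this direction lay between -4.22 and -2.19, so the first stood far from all others.

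The 2 members furthest towards the male pool were less abundant. TRINITY_DN19302_c4_g1 spanned 13501 bases with 45.9% GC and drew 4970 male and 305 female reads, for 17.8 and 0.887 FPKM. The log2 ratio of 4.34 had a counting interval of 4.18 to 4.51, a 20.3-fold difference in CPM. TRINITY_DN18877_c2_g2 spanned 13259 bases with 43.8% GC and drew 3028 male and 230 female reads, for 11.1 and 0.681 FPKM. The log2 ratio of 4.03 had a counting interval of 3.84 to 4.24. These 4 contigs were picked for the size of their ratios, so that size is a description. The scalings tried moved log2 ratios by at most 1.32 and none turned their direction.

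The highest mean FPKM after TRINITY_DN19138_c1_g1 belonged to contigs higher in the male pool. A contig of 12955 bases drew 36216 male and 16596 female reads, with FPKM of 135 and 50.3 and a log2 ratio of 1.44. A contig of 16226 bases drew 31846 male and 14737 female reads, with FPKM of 95.03 and 35.6 and a log2 ratio of 1.43. Scaling by the median of ratios moves both by -1.32, to near 0. At the other end, a contig of 14841 bases with 50.4% GC had 8 male reads and 1 female read, 1 read per 1649 bases. It was the member left out by the minimum of 10 reads, and its FPKM of 0.0261 and 0.00264 was the lowest of the group. The next lowest, of 11956 bases, had 144 male and 63 female reads.

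Most members shared their assembly component with several other contigs. The Trinity assembler groups contigs that share sequence into components, and the identifier up to its last field names the component. The median member shared its component with others to a total of 7 contigs, against 3 for the comparison class. Only 20 members, or 6.97%, were alone in theirs, against 30.9% of the comparison class and 61.4% of all contigs. In components of at least 10 contigs lay 71 members, or 24.7%, against 17.0% of the comparison class and 7.19% of all contigs. Contigs of 8000 to 10000 bases lay close to the members, with a median of 6 contigs, 10.9% alone and 25.6% in components of at least 10. The 287 members came from 277 components, whose 1672 other contigs had a median length of 1212.5 bases. How reads that fit several contigs were counted is not given in the sources used here, so levels of members with close relatives are uncertain.

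The rest of a component did not always lean the way its long contig did. In the 261 members whose other contigs summed to at least 10 reads, the member held a median of 48.1% of the component's reads (quartiles 23.3 and 70.9). Member and remainder lay on the same side of equal CPM in 153 cases, and Spearman's rho between their log2 ratios was 0.27. Of 28 members that were 4-fold male-higher, the remainder was higher in the male pool in 25 and 4-fold so in 9, against 148 (56.7%) and 32 of all 261 remainders. Of 10 members that were 4-fold female-higher, the remainder was higher in the female pool in 8 and 4-fold so in 0, against 113 (43.3%) and 24 of all 261. For TRINITY_DN19138_c1_g1 the 8 other contigs summed to 7702 male and 10595 female reads, a log2 ratio of -0.14. Among the 7 of them with at least 10 reads, 3 were 4-fold female-higher and 0 were 4-fold male-higher. For TRINITY_DN17728_c2_g1 the 6 others summed to 793 and 2873, a log2 ratio of -1.54, and 0 of them were 4-fold apart. For TRINITY_DN18877_c2_g2 the 8 others summed to 2084 and 336, a log2 ratio of 2.95. Among the 6 of these 8 with at least 10 reads, 5 were 4-fold male-higher and 1 was 4-fold female-higher. TRINITY_DN19302_c4_g1 was alone in its component.

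A pair of members came from each of 10 components, and in most of these both members had similar ratios. The log2 ratios of the 2 contigs differed by a median of 0.25, and by under 1 in 7 of 10 pairs. A pair of 21456 and 17047 bases had 12707 and 10395 male reads and 1524 and 1319 female reads, with log2 ratios of 3.38 and 3.29. A pair of 21079 and 20022 bases had 1.51 and 1.26, although the first had 14372 male reads and the second 1821. Their counting intervals did not overlap, nor did those of the pair of 14209 and 10170 bases, with 0.89 and 1.30. In the pair of 11692 and 10891 bases the ratios were 3.98 and 2.06, and in that of 12363 and 11840 bases they were 1.93 and 0.54, gaps wider than their counting intervals. The widest gap was in the pair of 16975 and 14841 bases. Its longer contig had 896 male and 20862 female reads and a log2 ratio of -4.22, and its shorter one was the contig with 9 reads, whose interval ran from 0.42 to 8.79.

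**Figure D5:**
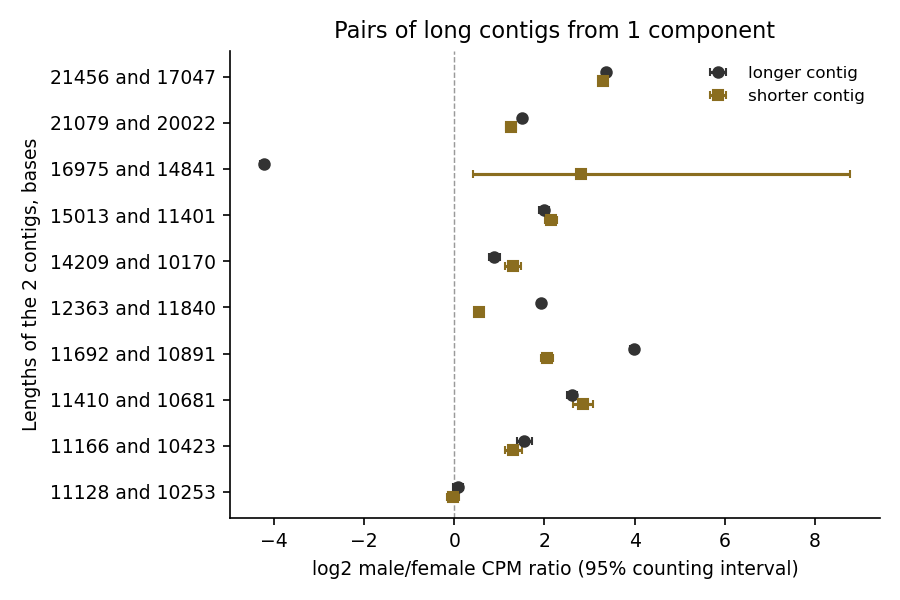
Log2 ratio of male to female CPM (horizontal) of both members in the 10 components that hold a pair of contigs of at least 10000 bases (vertical, by their lengths), with circles for the longer and squares for the shorter contig and bars for exact 95% counting intervals. The markers lie under 1 apart in 7 pairs, and the pair of 16975 and 14841 bases is the widest apart. Among those 7, the bars do not overlap in the pairs of 21079 and 20022 and of 14209 and 10170 bases.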

How the data were processed

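Total RNA, 1 ug per library, went into TruSeq RNA libraries, per the labels' protocols. The table deposited by the authors gives raw read counts per contig, FPKM, base numbers, length and GC percent, per the file headers. The deposited FPKM equalled counts per length with library totals of 20653893 (male) and 25478638 (female). The submitters' processing notes name cutadapt 1.8, Bowtie2 2.2.6 and DESeq 1.16.0. How contigs were assembled and reads counted is not stated in the labels or headers.

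Counts summed to 19788173 (male) and 24649400 (female). CPM used these sums. Log2 ratios added 0.5 to each count and used contigs with at least 10 reads over both libraries. Called means at least 4-fold apart. FPKM classes were 1 log2 unit wide, by the mean of both pools, and averages over classes were weighted by the number of long contigs. Intervals are 95%, exact (Clopper-Pearson) for ratios and Wilson for shares, and cover counting error only, since reads are not independent molecules. Python 3.11.15, scipy 1.17.1 and edgeR 4.0.16 (TMM only) were used, and the computation was tested on simulated data. With 1 library per sex, no p-value is given.

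The members and measures were chosen with earlier results of these data known. At most 2 contigs per direction are named, those with the largest log2 ratio among members with at least 100 reads. Others are described by length. The 3 members nearest to the threshold on each side, the 3 longest and the 3 of highest mean FPKM were described by rule, and the contigs of lowest read number and the pairs were chosen after their values were seen. Alternatives covered scaling, prior count, read minimum, length minimum, comparison class, matching and components of 1 contig.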

Additional observations from a re-analysis of the deposited data

How the results depend on the processing

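Each library is single, so limits of depth concern counting error alone, and the median member had 3674 reads over both pools. No paired analysis was possible because there is 1 library per sex and the labels number no replicates. Scaling turned the members' median log2 ratio from 0.45 to -0.86 (median of ratios) and -0.75 (TMM) and raised it to 1.15 (median over abundant contigs). It gave 5 male-higher and 51 female-higher members, 6 and 44, and 74 and 8 in the same order, in place of 29 and 12. Over all contigs the shares were 12.9% and 17.3%, 14.3% and 16.1%, and 51.8% and 5.41%, in place of 35.7% and 8.10%. These changes follow from the constant shift each scaling adds. The difference from contigs of 2000 to 4000 bases at equal FPKM, 0.11, reversed to -0.24 with classes by the male FPKM, and the cause was not tested.

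Length minimums change the number of contigs. With 8000 bases, 73 were male-higher and 29 female-higher, 631 and 600 reached FPKM 1 in the male and female pools, and they held 8.56% and 8.19% of counts. With 12000 bases the values were 13 and 4, 131 and 125, and 2.34% and 1.79%. The shares over all contigs do not depend on the length minimum and stay at 35.7% and 8.10% (4-fold) and 52.7% and 26.9% (FPKM 1). A fold of 2 gave 97 and 35 of 286 members, against 30829 and 7553 of all 52729 contigs with at least 10 reads. An FPKM threshold of 5 gave 146 members in the female pool, against 11902 of all 96646 contigs. In the 20 members alone in their component, the median log2 ratio was 0.76, the difference at equal FPKM 0.51, the difference in interquartile range -1.37, and 1 member was 4-fold apart in each direction. With 20 members a class can hold very few, and classes of 1 or 2 add little or no spread. The -1.37 therefore cannot show a narrower spread. Over all members, the difference in interquartile range, -0.76 in the report, was -1.05 with classes by the male FPKM, -0.52 by the female FPKM and -0.56 against contigs of 4000 to 6000 bases. It was -0.65 in classes of at least 20 members, an alternative chosen after seeing the data, as were all others of this measure. The library totals behind the deposited FPKM gave shares of 3.76% and 4.30%. Without TRINITY_DN19138_c1_g1, also tried after seeing the data, the female share was 3.12%. In all, 45 values kept their direction and moved little, 32 moved further and 3 reversed. Little means by no more than 1.5 times (counts) or less than the counting or order-statistic interval (shares and medians). Among the 45 were those with a prior count of 5, with at least 1 or 100 reads and for GC content. Differences at equal FPKM under the other scalings were also among them, and a constant shift cannot change these.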
